A study of Drosophila melanogaster with 58 samples.

Results

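The Osiris genes encode a family of insect proteins, and 10 of them (Osi2, Osi4, Osi6, Osi7, Osi9, Osi14, Osi15, Osi18, Osi19 and Osi20) were followed through metamorphosis of the Drosophila melanogaster wing. The 10 genes were found by their FlyBase symbols among the 17559 genes counted in each library, and all 10 passed the filter on low counts. The files hold 12 further Osiris genes. RNA was sequenced from 24 samples of female wings, with 2 libraries in each of 12 groups. In 3 genotypes transgenes were carried. E2F + CycD wings expressed the cell cycle genes CycD, Cdk4, E2F1 and DP. E2F wings expressed E2F1 and DP, and Ctr wings carried the flippase control. Each was dissected at the equivalent of 24h and 44h after puparium formation (APF). The authors converted these hours to a reference temperature, because the transgenic animals developed at other temperatures. All transgenic wings, Ctr included, carried hs-FLP, a tub>CD2>GAL4 driver with UAS-GFP and tub-gal80TS. The driver is expressed only in cells in which a heat shock during larval life removed a stop cassette, and what share of the wing that was is not given in the sources used here. These animals were raised cool and warmed at the equivalent of 12h APF, which releases the driver. Wild-type wings were dissected at the late larval stage (L3) and at 6h, 18h, 24h, 36h and 44h APF. The labels do not say whether the libraries of a group came from separate cultures of animals, so p-values measure the spread between these libraries, which may be partly technical. The comparisons ask when the Osiris genes are used as the wing differentiates, and whether their use changes when E2F, alone or with CycD, is forced to stay active after the cell cycle has normally ended.

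Osiris proteins have a signal peptide and a domain of unknown function that occurs in insects, and they are known from epithelia that secrete cuticle. Most of the genes lie side by side in the Triplo-lethal region of Drosophila, a stretch that flies tolerate poorly at a raised dose. The pupal wing lays down cuticle more than once, first the thin pupal cuticle and later the layers of the adult wing, and its cells leave the cell cycle for good between these events. In Drosophila, Osi9, Osi15 and Osi19 have been linked to maturation of tracheal tubes, and Osi23 (gore-tex) to the pores of olfactory bristles. No role is given here for the other genes.

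Reads assigned to genes numbered 1900774 to 7512920 per wild-type library and 11201219 to 16332737 per transgenic library. Levels are given as CPM, reads of a gene scaled to the size of its library with TMM factors. A gene was called where its log2 fold change lay past 1 in either direction with an adjusted p under 0.05 in edgeR's test. A count of 3, taken as the floor, corresponded to 0.328 to 1.41 CPM in wild-type libraries and 0.146 to 0.389 CPM in transgenic libraries, for counting error only. The wing markers nub, vg, rn and sd were detected in every library, and their summed level ran between 565 and 2414 CPM. Muscle markers, 3 of 4 of which are in the files, ran between 5.43 and 1433 CPM, with Act88F at 0 in L3 and 6h wings. The transgenes were visible in the transcripts: E2f1 was higher in E2F than in Ctr wings by 3.06 ± 0.23 (log2, SE) at 24h, and by 5.12 ± 0.25 at the later time, and CycD was higher in E2F + CycD than in Ctr wings by 3.62 ± 0.19 and 6.04 ± 0.21. Dp, the partner of E2f1, was higher by 0.83 ± 0.15 and 0.52 ± 0.15 in E2F + CycD wings, under the fold threshold. The pair of wild-type 6h libraries stood apart: their correlation across genes was the lowest of any group (r = 0.937 over 8046 genes), and summed fat body markers were 104 CPM in replicate 1 and 590 CPM in replicate 2.

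All 10 genes lie on chromosome 3R, between 6209373 (start of Osi2) and 6341424 (end of Osi20) in the dm6 assembly, within a cluster of 167.9 kb that begins at Osi1. The cluster holds 22 of the 25 annotated Osiris genes and 6 other protein-coding genes, 5 of which are in the files. Osi4 is on the minus strand and the other genes described here are on the plus strand. No exon of the 10 genes overlaps another gene. The core promoters are shown because the letters TATAAA, those of a TATA box, were shared by more of these genes than of the annotation as a whole. Osi2 has 3 annotated starts, of which the first is used, and every other gene of the 10 has 1. In the window of 30 bases from -45 to -16 before the annotated start, on the gene's strand, TATAAA occurred in 6 of the 10 genes (Osi2, Osi7, Osi15, Osi18, Osi19 and Osi20), in 4 of the 15 other annotated Osiris genes and in 8.75% of 13945 protein-coding genes. A match is a description of letters, not of a site in use. The windows below run 5′ to 3′ in dm6, with TATAAA in capitals, for Osi2 (chr3R:6209328-6209357), Osi7 (chr3R:6248949-6248978), Osi15 (chr3R:6301759-6301788) and Osi20 (chr3R:6340050-6340079), and for Osi4 (chr3R:6221797-6221826, minus strand) and Osi9 (chr3R:6260166-6260195), where those letters were not found.
Osi2: ccacttctcgcatttcaTATAAAatctttg
Osi7: tcactgccactgccgccgtaTATAAAttgt
Osi15: acgtcaaatcgaaatggTATAAAacgcggg
Osi20: tttgggggagcggcagTATAAAacgcgaac
Osi4: atgcaacggctggtaattagtctccacaag
Osi9: cgctctgctggccgggaataaaactcgatc
In these windows the first T of TATAAA stood at -28 in Osi2 and Osi15, -25 in Osi7 and -29 in Osi20. Other letters searched on both strands from -250 to 50 were those of the factors Grainy head (AACCGGTT), Ftz-f1 (AAGGTCA) and Blimp-1 (core GAAAGT), which occurred in 0, 0 and 1 of the 10 genes and in 0.75%, 2.11% and 19.93% of all genes. The initiator letters TCAGTT, searched from -10 to 10 on the gene's strand, occurred in 0 of the 10 genes and 5.99% of all genes.

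In wild-type wings, each of the 10 genes had its highest mean at 6h or at 44h, and levels were at most 221 CPM in every 18h and 24h library. For 7 genes (Osi2, Osi6, Osi14, Osi15, Osi18, Osi19 and Osi20) the stage of the highest mean was 6h, and for Osi4, Osi7 and Osi9 it was 44h. The other of these stages could be low for a gene: Osi4 and Osi9 at 6h were at 0.203% and 2.21% of their highest mean, Osi14 and Osi18 at 44h were at 0.483% and 1.99%, and Osi9 was already at 37.8% by 36h. Of the 12 other Osiris genes, 1 was highest at 6h, 3 at 36h and 8 at 44h. Together the 10 genes took 0.00349% and 0.00368% of gene reads in the L3 libraries, 2.51% and 5.63% at 6h, 0.0429% and 0.0330% of them at 18h, 0.0138% and 0.0473% in the 24h libraries, 1.19% and 1.38% by 36h and finally 6.24% and 6.35% at 44h. In bulk wings, fewer cells of a type and less RNA per cell cannot be told apart.

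**Figure D1:**
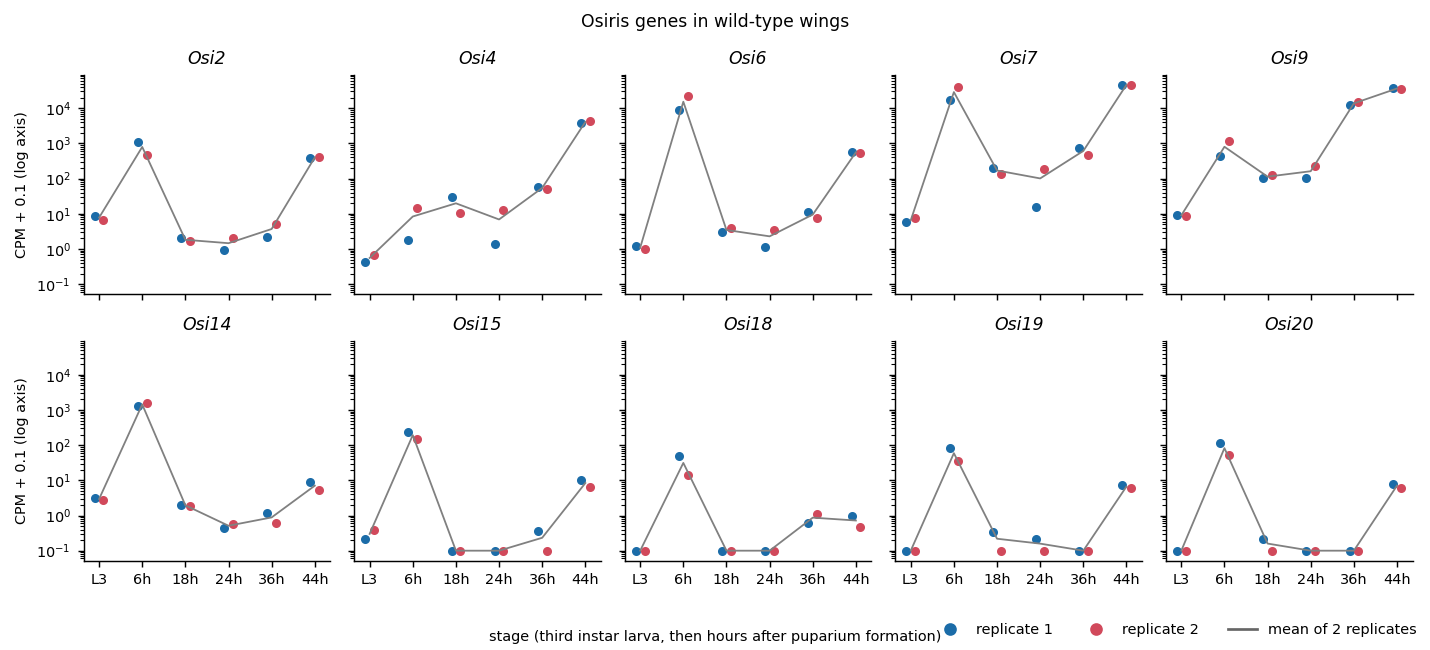
Level of each of the 10 Osiris genes in the wild-type libraries, as CPM plus 0.1 on a log axis, against stage; points are the 2 replicates and lines join their means. All panels rise at 6h and fall again by 18h except Osi4, and Osi4, Osi7 and Osi9 reach their highest points at 44h.

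Between L3 and 6h all 10 genes rose. Osi7 had 16836 and 40564 CPM at 6h, against 5.57 and 7.26 CPM in L3. Osi6 had 8956 and 21592 CPM at 6h, against 1.09 and 0.871 CPM in L3. These were the most abundant of the 10 at 6h, and no L3 library came near a 6h library (log2 fold change 12.15 ± 1.22 for Osi7 and 13.84 ± 0.71 for Osi6, SE, n = 2 each, edgeR adjusted p = 8.196e-06 and 3.473e-08). Osi14 had 1280 and 1599 CPM at 6h, against 3.06 and 2.61 CPM in L3. Osi2 had 1102 and 480 CPM at 6h, against 8.63 and 6.68 CPM in L3. Osi9, linked to tracheal maturation, had 433 and 1167 CPM at 6h, against 9.39 and 8.42 CPM in L3. For all these genes the groups did not overlap, and the log2 fold changes were 8.94 ± 0.34 for Osi14, 6.66 ± 0.46 for Osi2 and 6.47 ± 0.58 for Osi9.

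The members at the distal end of the cluster came on from almost nothing. Osi15 had 234 and 151 CPM at 6h, against a single read in each L3 library, a ratio of 1261 with a counting interval of 349 to 10424. Osi18, Osi19 and Osi20 had no read in either L3 library. Their levels at 6h were 47.8 and 14.5 CPM for Osi18, 83.8 and 34.2 CPM for Osi19 and 111 and 53.0 CPM for Osi20. These levels were at least 144-fold, 268-fold and 369-fold higher than in L3 for the same genes, each against a floor of 3 counts over the group. Osi4 stayed low, at 1.67 and 14.8 CPM at 6h against 0.328 and 0.581 CPM in L3. The 10 calls compare with 18.3% of 8669 genes called higher in this step, and the median log2 fold change was 10.18 for the 10 genes and 0.00 for all genes tested. Osi18 was at most at 2.47% of its 6h mean at any other wild-type stage. It thus passed the low-count filter in these libraries only through 6h, and its call here followed from that filter. The call of Osi4 was lost without L3 replicate 1 (adjusted p = 0.178, edgeR), L3 replicate 2 (0.0633) or 6h replicate 2 (0.380, log2 fold change 1.96 against 4.18 with all libraries), and the other 9 calls held with each library left out. Fat body markers also moved in this step, with 104 and 590 CPM at 6h against 4.04 and 4.94 CPM in L3, and wing epithelium markers had 729 and 788 CPM at 6h against 1195 and 929 CPM in L3. Among the wing epithelium markers rn went the other way, at 153 CPM at 6h against 112 CPM in L3 on the group means. The part of these markers in the rise was not tested.

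The 6h libraries disagreed about the 10 genes in opposite directions. Replicate 1 was higher for Osi2, Osi15, Osi18, Osi19 and Osi20, by 1.55 to 3.30 times. Replicate 2 was higher for Osi4, Osi6, Osi7, Osi9 and Osi14, by 1.25 to 8.85 times. Over 6537 genes the median difference between these libraries was 0.388 on the log2 scale and the 90th percentile was 1.05. Fat body markers moved between the same libraries (104 and 590 CPM), and their part in the split was not tested.

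By 18h, 9 of the 10 genes had fallen, beside 17.7% of genes called lower in this step. The call of Osi18, which passed the low-count filter only through 6h, followed from that filter. Osi6 had 2.85 and 3.85 CPM at 18h, against 8956 and 21592 CPM at 6h, 4561-fold lower on the group means. Osi7 had 205 and 135 CPM at 18h, against 16836 and 40564 CPM at 6h, 169-fold lower. Osi14 had 1.90 and 1.80 CPM at 18h, against 1280 and 1599 CPM at 6h, 779-fold lower. No 18h library came near a 6h library for any of these. Osi2 had 1.90 and 1.54 CPM at 18h, against 1102 and 480 CPM at 6h, 460-fold lower. Osi15 and Osi18 had no read at 18h, which placed them at least 822-fold and 141-fold below their 6h levels. Osi19 and Osi20 had 2 reads and 1 read over the 18h libraries, and their 6h levels were 393 times (counting interval 108 to 3252) and 1082 times (194 to 42786) as high. Osi9 fell least of those called, to 100.6 and 126 CPM at 18h against 433 and 1167 CPM at 6h (log2 fold change -2.82 ± 0.48, edgeR adjusted p = 4.582e-04). Osi4 was not called: it had 28.8 and 10.5 CPM at 18h, against 1.67 and 14.8 CPM at 6h, and these groups overlapped. Without 6h replicate 2 the Osi4 difference passed (log2 fold change 3.66, adjusted p = 0.00865, edgeR), while the 9 calls held with each library left out.

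Between 18h and 24h, 1 of the 10 genes was called, beside 5.1% of genes called lower. Osi14 had 0.352 and 0.471 CPM at 24h, from 3 and 1 reads, against 1.90 and 1.80 CPM at 18h (log2 fold change -2.23 ± 0.57, adjusted p = 0.0228, edgeR). That call was lost without 18h replicate 1 (adjusted p = 0.128), 18h replicate 2 (0.0730) or 24h replicate 1 (0.359). The 24h libraries differed for several members, with Osi7 at 15.7 and 186 CPM and Osi4 at 1.29 and 12.3 CPM. Without 24h replicate 2, Osi4 and Osi7 were called lower than at 18h as well (log2 fold change -3.98 and -3.47). Osi15, Osi18, Osi19 and Osi20 had at most 2 reads in any library of either stage. Among the 10 other Osiris genes tested, 2 were called higher at 24h than at 18h. These were Osi22 (log2 fold change 4.67 ± 0.53, adjusted p = 0.0002056, edgeR) and Osi11 (1.01 ± 0.29, adjusted p = 0.03991, edgeR), the latter just past the fold threshold. The share of all genes called higher in this step is not given here, and these 2 genes were not followed with libraries left out.

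At 36h the second rise began, and it started with Osi9. This gene had 12490 and 14940 CPM at 36h, against 102 and 221 CPM at 24h (log2 fold change 6.42 ± 0.56, adjusted p = 4.096e-06, edgeR). Osi4 had 58.2 and 50.1 CPM at 36h, against 1.29 and 12.3 CPM at 24h. Osi7 had 757 and 461 CPM at 36h, against 15.7 and 186 CPM at 24h. Osi6 had 11.4 and 7.30 CPM at 36h, against 1.06 and 3.30 CPM at 24h. These 4 genes were called higher, beside 15.3% of genes, and in all 4 the groups did not overlap. By 36h Osi9 had reached 37.8% of its highest stage mean, whereas Osi4, Osi6 and Osi7 were at 1.33%, 0.0613% and 1.32% of theirs. Trachea markers, given because Osi9 has been studied in trachea, summed to 830 and 1112 CPM at 36h against 555 and 418 CPM at 24h, and their part in the Osi9 rise was not tested. The 3 markers of that list in the files did not move together: on the group means sty was at 768 CPM at 36h and 292 CPM at 24h, Cht2 at 168 CPM at 36h and 105 CPM at 24h, and trh, a factor that specifies trachea, at 34.4 CPM at 36h and 89.8 CPM at 24h. The Osi9 call held with each library left out. The others depended on single libraries: Osi4 was lost without 24h replicate 1 (adjusted p = 0.108, edgeR), Osi6 without 24h replicate 1 (0.165) or 36h replicate 1 (0.0514), and Osi7 without 36h replicate 1 (0.106).

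At 44h, 9 of the 10 genes were higher than at 36h, beside 10.8% of genes. Osi7 had 45214 and 47080 CPM at 44h, against 757 and 461 CPM at 36h (log2 fold change 6.24 ± 0.95, adjusted p = 3.656e-04, edgeR). Osi4 had 3742 and 4385 CPM at 44h, against 58.2 and 50.1 CPM at 36h (6.23 ± 0.88). Osi2 had 395 and 403 CPM at 44h, against 2.12 and 5.04 CPM at 36h (6.78 ± 0.49). The 44h replicates of these genes lay close together, unlike those at 6h. Osi6 had 581 and 533 CPM at 44h, against 11.4 and 7.30 CPM at 36h. Osi9, which had risen earlier, had 37103 and 35415 CPM at 44h, against 12490 and 14940 CPM at 36h, and this smaller change (1.40 ± 0.45, adjusted p = 0.0355, edgeR) was lost without any 1 of the 4 libraries (adjusted p = 0.105 to 0.163) and with library totals as the scale. The distal members of the 10 genes returned at a low level. Osi14 had 8.69 and 5.20 CPM at 44h, against 1.06 and 0.504 CPM at 36h. Osi15 had 81 reads over the 44h libraries and 1 read at 36h, a ratio of 62.8 with a counting interval of 10.95 to 2510. Osi19 and Osi20 had 65 and 69 reads at 44h and none at 36h, at least 16.8-fold and 17.8-fold higher. Muscle markers summed to 282 and 1433 CPM at 44h against 86.0 and 157 CPM at 36h, and their part in these changes was not tested. Osi18 was not called, with 4 and 2 reads at 44h against 2 and 4 reads at 36h. The other 8 calls held with each library left out.

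The genes differed in how 44h compared with 6h. Set directly against 6h, the 44h wings had Osi4 higher by 9.04 ± 1.01 and Osi9 higher by 5.50 ± 0.54 on the log2 scale. Osi6, Osi14, Osi15, Osi18, Osi19 and Osi20 were lower at 44h than at 6h, beside 14.7% of genes called lower and 17% called higher. The call of Osi18 again followed from its passing the low-count filter only through 6h. Osi14 was the furthest below, at 8.69 and 5.20 CPM at 44h against 1280 and 1599 CPM at 6h (-7.70 ± 0.32), and Osi6 was lower by 27.4-fold. Osi2 (-0.99 ± 0.35) and Osi7 (0.69 ± 0.76) were not called. Osi2 passed without 6h replicate 2 (-1.43) and with library totals as the scale (-1.25), and the 8 calls held with each library left out. Per kilobase of exon, the order of levels at 6h was Osi7 (10669 RPKM), Osi6 (8274), Osi14 (1319), Osi9 (588), Osi2 (455), Osi15 (156), Osi20 (65.0), Osi19 (51.8), Osi18 (24.5) and Osi4 (5.41). The ranges of the replicates overlapped between Osi7 and Osi6, Osi9 and Osi2, Osi20 and Osi19, and Osi19 and Osi18. Within each 6h library, however, Osi7 stood above Osi6 (6259 against 4852 RPKM in replicate 1, and 15080 against 11697 RPKM in replicate 2), Osi20 above Osi19 and Osi19 above Osi18, and of these pairs Osi9 and Osi2 changed order between the libraries. At 44h the order was Osi9 (26661 RPKM), Osi7 (17155), Osi4 (2670), Osi6 (302), Osi2 (229), Osi15 (6.71), Osi14 (6.37), Osi19 (5.76), Osi20 (5.52) and Osi18 (0.488), and Osi15, Osi14, Osi19 and Osi20 overlapped in their replicates and took a different order in each library.

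Position along the cluster did not sort the genes into single blocks by stage. The distal stretch from Osi14 to Osi20, at 126 to 167 kb from the cluster start, held 5 of the 7 described genes highest at 6h. It also held Osi16 and Osi17, at 131.7 and 138.2 kb, which were highest at 44h. Their means there were 0.620 CPM for Osi16, near the floor, and 556 CPM for Osi17. Osi2 and Osi6, also highest at 6h, lay at 35.8 and 61.2 kb, on each side of Osi4 at 44.8 kb, which was highest at 44h. Between Osi4 and Osi6 lay Osi5, at 53.96 kb, which was highest at 6h with a mean of 85.1 CPM. Osi7 and Osi9 followed at 75.4 and 86.7 kb. Among the 5 other protein-coding genes of the cluster that are in the files, the highest group mean was 6.53 CPM, for CG15597 in wild-type wings at 44h, and it passed the filter in the wild-type libraries.

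**Figure D2:**
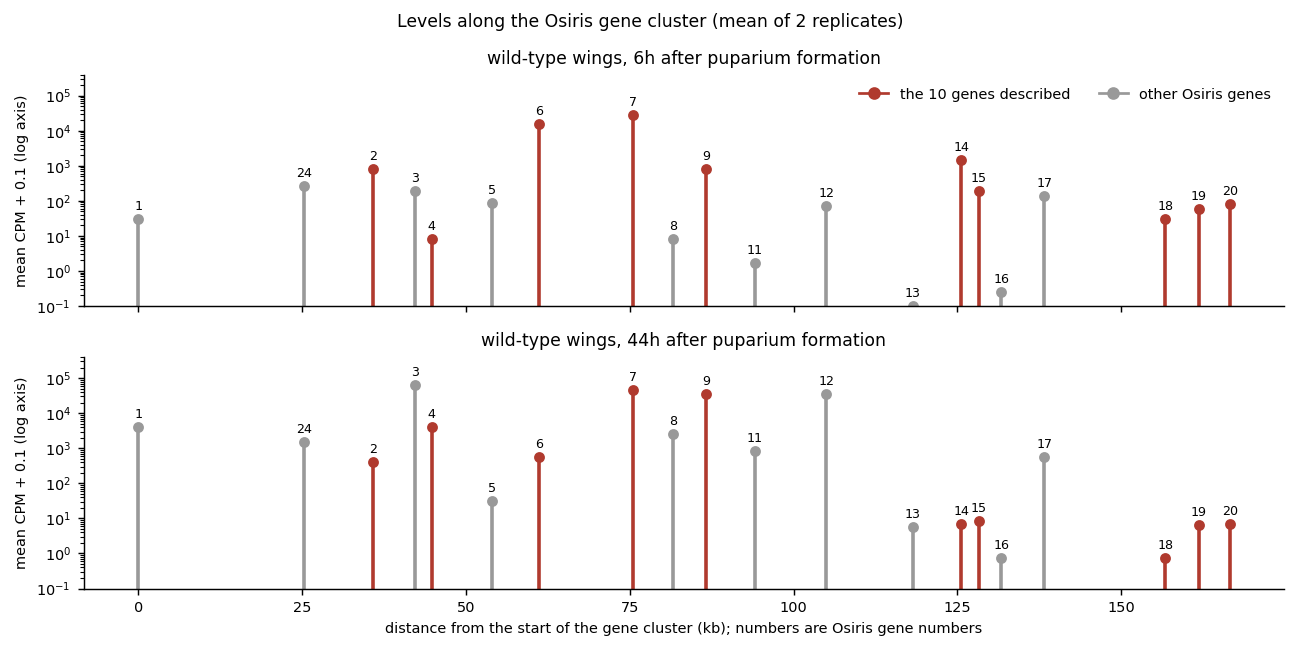
Mean level of the Osiris genes of the cluster in wild-type wings at 6h (top) and 44h (bottom), as CPM plus 0.1 on a log axis, against distance from the cluster start in kb; red marks the 10 genes described and grey the other Osiris genes in the files. Osi6, Osi14, Osi15, Osi18, Osi19 and Osi20 stand lower in the lower panel, and Osi4 and Osi9 stand higher.

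Most of the other Osiris genes were highest at 44h. Of 12 in the files, 10 were tested in the wild-type fit: 8 were called higher at 6h than in L3, 7 at 36h than at 24h and 6 at 44h than at 36h, while 9 were higher at 44h than at 6h. In the same order, the shares of all genes called higher were 18.3%, 15.3%, 10.8% and 17%. The 4 with the highest group means were Osi3, Osi12, Osi22 and Osi1. Osi3 had 68846 and 58315 CPM at 44h, against 16034 and 13426 CPM at 36h. Osi22, which lies outside the cluster, had 20706 and 15493 CPM at 36h and 2150 and 1831 CPM at 44h, and was called lower at 44h than at 36h (log2 fold change -3.18 ± 0.47, adjusted p = 2.792e-04, edgeR). Adding all 22 genes, the family took 14.5% and 14.0% of gene reads in the wild-type 44h libraries, more than the 10 genes alone.

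**Figure D3:**
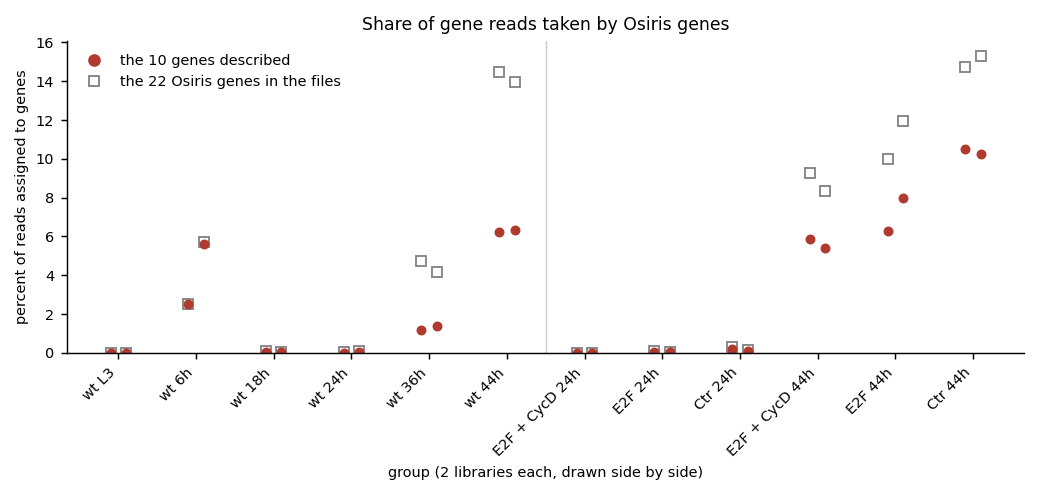
Percent of gene reads taken by the 10 genes described (red points) and by all 22 Osiris genes in the files (open squares) in each library, with the 2 libraries of a group side by side. The share of the 10 genes is at most 0.188% in every 24h library and is highest in Ctr wings at 44h, at 10.3% and 10.5%.

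Genes that build cuticle also changed at these stages. The list of 9 cuticle assembly genes (chitin synthase kkv, its partners reb and exp, the chitin organisers knk and rtv, the deacetylases serp, verm and Cda5, and mmy, which makes the chitin precursor) had 8 called higher at 6h than in L3, with a median log2 fold change of 5.10 against 0.00 for all genes. It had 6 called lower at 18h than at 6h and 6 called higher at 44h than at 36h, with a median of 3.35 against 0.08 for all genes. The zona pellucida (ZP) domain genes, which attach the cell surface to the cuticle, also had 4 of 8 called higher and 1 lower at 6h than in L3 (dyl by 11.02 ± 0.73 and dy by 7.19 ± 0.61), and 1 higher and 4 lower at 18h than at 6h. Later, 6 of the 8 were higher at 36h than at 24h, while 1 was higher and 3 were lower at 44h than at 36h. Among 7 hormone-response and epidermal regulators, 4 were higher and 1 lower at 6h than in L3, with ftz-f1, a nuclear receptor of the prepupa, up by 6.64 ± 0.36 and Blimp-1, a repressor in its pathway, down at -5.28 ± 0.50. At 44h against 36h, 3 regulators were higher and 3 lower, including Blimp-1 at -6.71 ± 0.49. Over all genes, 18.3% were called higher at 6h than in L3 and 17.7% lower at 18h than at 6h. The shares called higher were 15.3% at 36h against 24h and 10.8% at 44h against 36h. Shares for the opposite directions are not given here.

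Turning to the transgenic wings, at 24h Osi4 and Osi7 were lower in both E2F genotypes than in Ctr wings, and Osi2 and Osi9 were lower in E2F + CycD wings. Osi4 had 3.07 and 1.52 CPM in E2F + CycD wings, 6.08 and 4.001 CPM in E2F wings, and 277 and 121 CPM in Ctr wings. Osi7 had 38.6 and 33.1 CPM in E2F + CycD wings, 229 and 114.9 CPM in E2F wings, and 1202 and 561 CPM in Ctr wings. Osi9 had 40.6 and 42.4 CPM in E2F + CycD wings, 172 and 116 CPM in E2F wings, and 182 and 113 CPM in Ctr wings. For Osi4 and Osi7 neither transgenic group overlapped Ctr, whereas for Osi9 the E2F and Ctr wings overlapped. Osi4 and Osi7 were called lower in E2F than in Ctr wings, by 39.5-fold and 5.13-fold (log2 fold change -5.30 ± 0.57 and -2.36 ± 0.42, adjusted p = 3.339e-05 and 0.001763, edgeR), which is 2 of the 10 genes beside 2.01% of 9636 genes called lower. Osi2, Osi4, Osi7 and Osi9 were called lower in E2F + CycD than in Ctr wings, 4 genes beside 1.95% of genes, by 6.23-fold, 86.8-fold, 24.6-fold and 3.55-fold. These comparisons share the Ctr libraries. Osi2, at 0.341 and 0.934 CPM in E2F + CycD wings against 5.40 and 2.54 CPM in Ctr wings, lost its call without Ctr replicate 1 (adjusted p = 0.143) or E2F + CycD replicate 1 (0.156), and the other calls held with each library left out. Osi2 in E2F wings, at 1.42 and 1.02 CPM, lay below both Ctr libraries and was not called (-1.66 ± 0.58, adjusted p = 0.0594, edgeR). Fat body markers at 24h were 355 and 48.0 CPM in E2F + CycD wings, 100.3 and 99.4 CPM in E2F wings, and 20.3 and 54.7 CPM in Ctr wings. Neuron markers were 175 and 176 CPM in E2F + CycD wings, 163 and 155 CPM in E2F wings, and 201 and 193 CPM in Ctr wings. The part of these markers was not tested.

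Compared directly at 24h, E2F + CycD wings had lower Osi7 (-2.26 ± 0.43, adjusted p = 0.006046, edgeR) and Osi9 (-1.79 ± 0.31, adjusted p = 0.003517) than E2F wings, 2 genes beside 3.95% of genes. The genotypes also differed in E2F transcripts: E2f1 (-1.75 ± 0.22) and Dp (-2.44 ± 0.15) were called lower in E2F + CycD than in E2F wings at 24h, so the presence of CycD and Cdk4 and the level of E2f1 and Dp cannot be told apart. The Osi7 call was lost without E2F replicate 1 (adjusted p = 0.0570) or E2F + CycD replicate 2 (0.0678). Osi4 differed by -1.13 ± 0.57 and did not pass. Osi14 had 0.795 and 0.467 CPM in E2F + CycD wings, 0.203 and 0.537 CPM in E2F wings, and 1.98 and 1.16 CPM in Ctr wings. Osi15, Osi18, Osi19 and Osi20 had at most 4 reads in any 24h library, so differences among genotypes were not detectable at this depth.

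**Figure D4:**
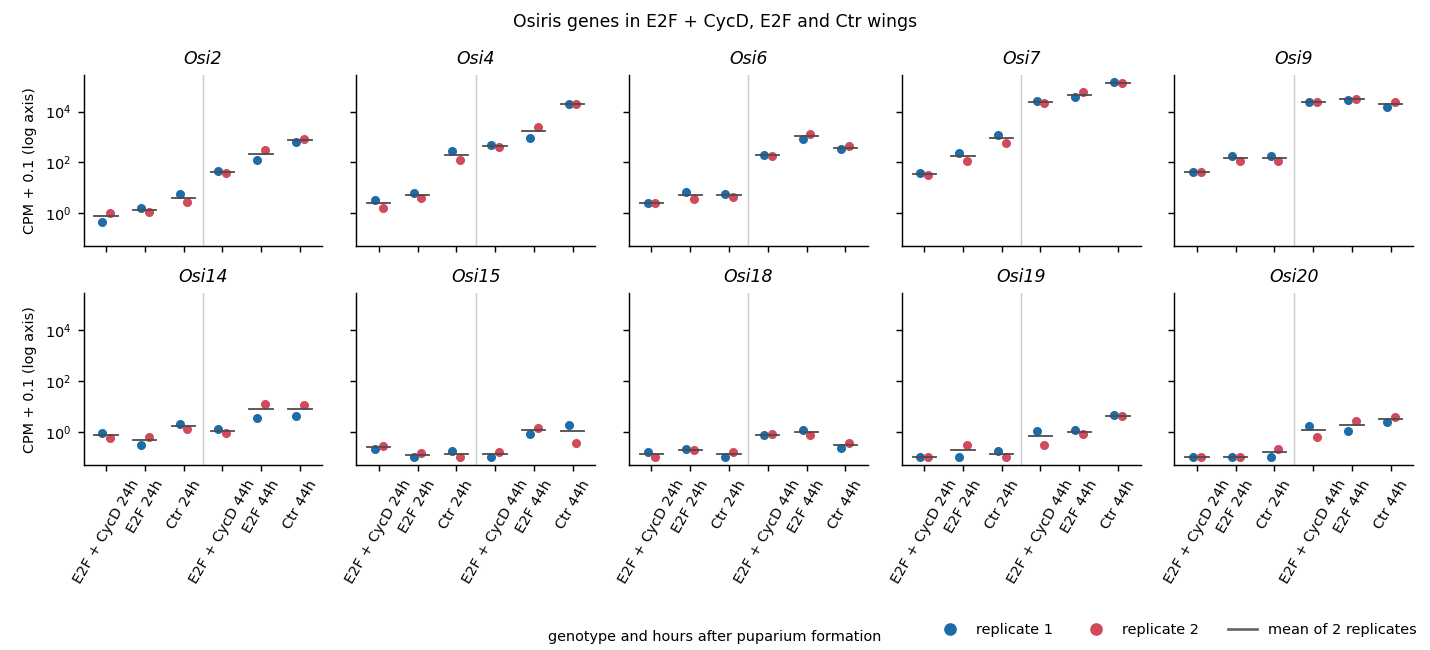
Level of each of the 10 Osiris genes in E2F + CycD, E2F and Ctr wings at 24h (left of the grey line) and 44h (right of it), as CPM plus 0.1 on a log axis; points are the 2 replicates and bars their means. Osi4 and Osi7 step up across the genotypes at both times, with Ctr wings highest, while Osi9 at 44h lies between 15260 and 32379 CPM in all genotypes.

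At 44h Osi2, Osi4 and Osi7 were lower in both E2F genotypes than in Ctr wings, and Osi6 was higher in E2F wings. Osi4 had 503 and 416 CPM in E2F + CycD wings, 930 and 2510 CPM in E2F wings, and 19233 and 20655 CPM in Ctr wings. Osi7 had 26930 and 21795 CPM in E2F + CycD wings, 36453 and 58626 CPM in E2F wings, and 143791 and 135229 CPM in Ctr wings. Osi2 had 44.6 and 36.8 CPM in E2F + CycD wings, 122 and 320 CPM in E2F wings, and 649 and 832 CPM in Ctr wings. In these 3 genes no library of one genotype overlapped another. Osi6 took a different order, with 203 and 184 CPM in E2F + CycD wings, 846 and 1341 CPM in E2F wings, and 323 and 450 CPM in Ctr wings. Osi9 had 24872 and 24335 CPM in E2F + CycD wings, 29964 and 32379 CPM in E2F wings, and 15260 and 24467 CPM in Ctr wings, so E2F wings were above both Ctr libraries and E2F + CycD wings overlapped them.

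Against Ctr wings at 44h, E2F wings had 4 of the 10 genes lower, beside 10.5% of genes, and 1 higher, beside 12.6% of genes. Osi4 was lower by 11.6-fold (log2 fold change -3.54 ± 0.50, adjusted p = 1.975e-04, edgeR), Osi2 by 3.35-fold (-1.74 ± 0.40) and Osi7 by 2.93-fold (-1.55 ± 0.41, adjusted p = 0.01064). Osi19, linked to tracheal maturation, had 1.05 and 0.731 CPM in E2F wings against 4.52 and 4.02 CPM in Ctr wings (-2.24 ± 0.79, adjusted p = 0.04307). Osi6 was the gene called higher in E2F wings (1.50 ± 0.27, adjusted p = 9.922e-04, edgeR). Osi9 differed by 0.65 ± 0.29 (adjusted p = 0.101) and was not called, though it passed without Ctr replicate 2 (1.06, adjusted p = 0.0195). The Osi7 call was lost without E2F replicate 1 (adjusted p = 0.0857) and when only these groups were fitted (0.0800). The Osi19 call was lost without any 1 of the 4 libraries (adjusted p = 0.106 to 0.199). The calls of Osi2, Osi4 and Osi6 held with each library left out.

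E2F + CycD wings at 44h had 6 of the 10 genes lower than Ctr wings, beside 16.1% of genes. Osi4 was lower by 43.4-fold (log2 fold change -5.44 ± 0.55, adjusted p = 9.362e-06, edgeR), Osi2 by 18.2-fold (-4.19 ± 0.44) and Osi7 by 5.73-fold (-2.52 ± 0.43). Osi14 had 1.20 and 0.834 CPM in E2F + CycD wings against 4.03 and 11.03 CPM in Ctr wings (-2.87 ± 0.69). Osi19 had 0.971 and 0.192 CPM in E2F + CycD wings against 4.52 and 4.02 CPM in Ctr wings (-2.83 ± 0.80). Osi15 had 0 and 1 reads in E2F + CycD wings against 14 and 2 reads in Ctr wings, 33.3 times more in Ctr wings with a counting interval of 5.18 to 1398. It passed the low-count filter in the transgenic libraries only through Ctr and E2F wings at 44h, and its call here followed from that filter. Osi6 was lower by 1.99-fold on the means and fell short of the fold threshold (-0.995 ± 0.27, adjusted p = 0.008778, edgeR), which it passed without Ctr replicate 1 (-1.19) or E2F + CycD replicate 1 (-1.06). Osi9 differed by 0.31 ± 0.29 and Osi20 by -1.53 ± 0.73, neither called. Osi18 stayed near the floor, at 0.628 and 0.705 CPM in E2F + CycD wings, 1.05 and 0.639 CPM in E2F wings, and 0.122 and 0.260 CPM in Ctr wings, and was called in neither genotype. The calls of Osi2, Osi4 and Osi7 held with each library left out. Osi14 was lost without Ctr replicate 2 (adjusted p = 0.0709), Osi15 without Ctr replicate 1 (0.271) or E2F + CycD replicate 1 (0.0898), and Osi19 without Ctr replicate 1 (0.0597) or E2F + CycD replicate 2 (0.0980).

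**Figure D5:**
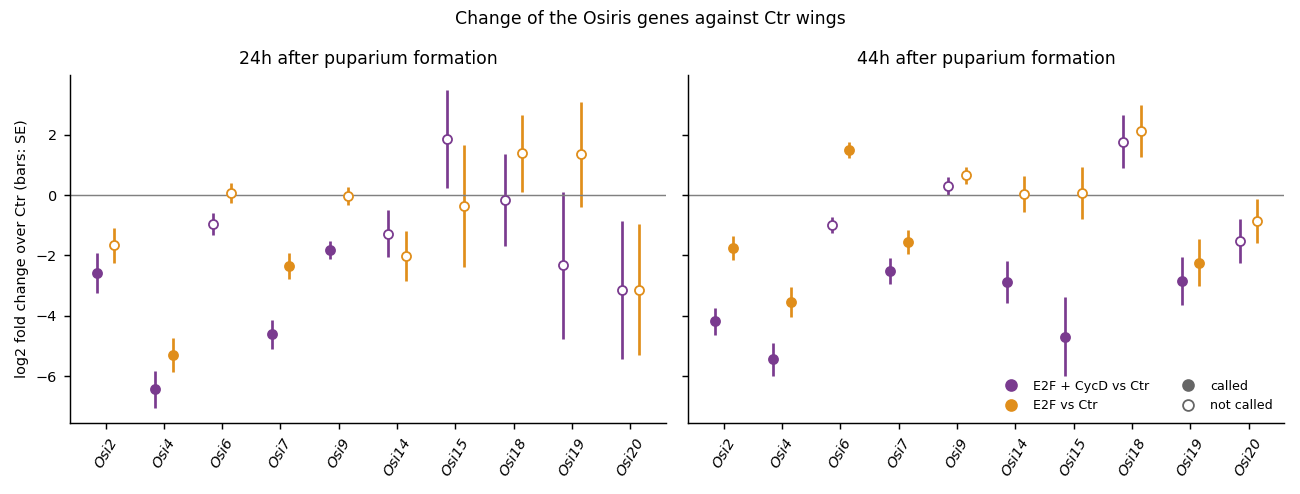
Log2 fold change over Ctr wings for each gene in E2F + CycD wings (purple) and E2F wings (orange) at 24h (left) and 44h (right); bars are the standard error of the fit, and filled points were called. At 44h Osi6 lies at -0.995 in E2F + CycD wings and 1.50 in E2F wings, and Osi4 lies lowest in both.

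Compared directly at 44h, 5 of the 10 genes were lower in E2F + CycD than in E2F wings, beside 6.89% of genes called lower. At this time too E2f1 (-1.21 ± 0.21) and Dp (-3.73 ± 0.16) were lower in E2F + CycD wings, while CycD was higher by 5.94 ± 0.21 and Cdk4 by 4.17 ± 0.22. E2F + CycD wings had less Osi6 than E2F wings by 5.64-fold (log2 fold change -2.50 ± 0.28, adjusted p = 1.253e-04, edgeR), less Osi2 by 5.44-fold (-2.44 ± 0.41) and less Osi4 by 3.75-fold (-1.91 ± 0.47). Osi14 was at 1.20 and 0.834 CPM in E2F + CycD wings against 3.30 and 12.2 CPM in E2F wings, and Osi15 at 0 and 1 reads against 10 and 15 reads. The call of Osi15, which passed the low-count filter only through Ctr and E2F wings at 44h, followed from that filter. Osi7 (-0.96 ± 0.41), Osi9 (-0.34 ± 0.29), Osi18, Osi19 and Osi20 did not pass. The calls of Osi2 and Osi6 held with each library left out. Osi4 was lost without E2F replicate 2 (-1.01, adjusted p = 0.140) or either E2F + CycD library (0.0545 and 0.0981), Osi14 without E2F replicate 2 (0.127) or E2F + CycD replicate 2 (0.0815), and Osi15 without E2F replicate 2 (0.105) or either E2F + CycD library (0.130 and 0.0713).

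Some of these calls at 44h depend on the scale. All 22 Osiris genes took 9.30% and 8.32% of gene reads in E2F + CycD wings, 10.01% and 11.9% of reads in E2F wings, and 14.7% and 15.3% of reads in Ctr wings. The TMM factors were 1.12 and 1.16 for E2F + CycD wings, 0.918 and 0.838 for E2F wings, and 0.585 and 0.565 for Ctr wings. With library totals in place of TMM, the median log2 change of all genes at 44h moved to 0.92 for E2F + CycD against Ctr wings (-0.06 with TMM) and to 0.54 for E2F against Ctr wings (-0.07 with TMM). On that scale Osi9 was called higher in E2F + CycD wings (1.30) and when E2F was expressed alone (1.26), Osi7 in E2F wings (-0.96) and Osi19 in both (-1.86 and -1.62) were no longer called, and Osi6 was at -0.0070 in E2F + CycD wings. Relative to those medians Osi2, Osi4 and Osi7 stood lower in both genotypes. A change of scale moves all genes by about the same amount, so their place relative to the median could not differ. It adds no support for these calls. Summed markers at 44h were 1661 and 1681 CPM for wing epithelium in E2F + CycD wings, 1407 and 1529 CPM in E2F wings, and 1502 and 1771 CPM in Ctr wings. Fat body markers were 251 and 201 CPM in E2F + CycD wings, 442 and 336 CPM in E2F wings, and 159 and 275 CPM in Ctr wings. Muscle markers were 22.3 and 16.2 CPM in E2F + CycD wings, 57.6 and 96.2 CPM in E2F wings, and 62.5 and 89.96 CPM in Ctr wings. Neuron markers were 163 and 162 CPM in E2F + CycD wings, 171 and 182 CPM in E2F wings, and 240 and 271 CPM in Ctr wings. Muscle markers were thus lowest in E2F + CycD wings and neuron markers highest in Ctr wings, and the part of these markers in the differences was not tested.

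The rise between 24h and 44h took place in all genotypes. In E2F + CycD wings 8 of the 10 genes were called higher at 44h, beside 13.7% of genes, in E2F wings all 10, beside 16.5%, and in Ctr wings 9, beside 20.6%. Osi15, Osi18, Osi19 and Osi20 had few reads in every 24h library and passed the low-count filter in the transgenic libraries only through 44h. Their calls here followed from that filter. Osi7 rose 680-fold in E2F + CycD wings, 277-fold in E2F wings and 158-fold in Ctr wings on the group means. Osi9 rose 593-fold in E2F + CycD wings, 217-fold in E2F wings and 135-fold in Ctr wings. Osi14 was called in E2F wings (4.34 ± 0.76) and Ctr wings (2.28 ± 0.67) and not in E2F + CycD wings (0.69 ± 0.80), where it had 1.20 and 0.834 CPM at 44h against 0.795 and 0.467 CPM at 24h. Osi15, at 0 and 1 reads at 44h against 2 and 3 reads at 24h, was not called in E2F + CycD wings either. Osi2, Osi4, Osi6, Osi7 and Osi9 were called in all 3 genotypes with each library left out, as was Osi20, whose calls followed from the filter. Some calls of Osi14, Osi15, Osi18 and Osi19 did not hold. In Ctr wings Osi14 was lost without 24h replicate 2 (adjusted p = 0.101), 44h replicate 2 (0.188) or with library totals as the scale (0.0801), and Osi15 without 24h replicate 2 (0.116) or 44h replicate 1 (0.285). In E2F wings Osi15 was lost without 24h replicate 1 (0.0574), Osi18 without either 24h library (0.0673 and 0.0687) or 44h replicate 1 (0.0896), and Osi19 without 24h replicate 1 (0.154) or either 44h library (0.131 and 0.0605) and with library totals (0.0501). In E2F + CycD wings Osi19 was lost without either 24h library (0.0630 and 0.0614) or 44h replicate 1 (0.130).

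An interaction term asked whether each effect changed with time. The effect of E2F on Osi6 differed, being 1.50 ± 0.27 at 44h and 0.06 ± 0.33 at 24h (difference 1.44 ± 0.42, adjusted p = 0.03369, edgeR), 1 gene beside 6.16% of genes called higher. The effect of E2F + CycD differed for Osi9, at 0.31 ± 0.29 at 44h and -1.83 ± 0.31 at 24h (difference 2.14 ± 0.42, adjusted p = 0.003651, edgeR), and for Osi7, at -2.52 ± 0.43 at 44h and -4.62 ± 0.47 at 24h (difference 2.10 ± 0.58, adjusted p = 0.02098). These were 2 genes beside 7.98% of genes called higher. For Osi15 the difference was called lower (-6.54 ± 2.14, adjusted p = 0.04484, edgeR), 1 gene beside 9.68% of genes, on 0 and 1 reads in E2F + CycD wings and 14 and 2 in Ctr wings at 44h, and 2 and 3 reads in E2F + CycD wings and 1 and 0 in Ctr wings at 24h. Osi15 passed the low-count filter only through Ctr and E2F wings at 44h, and its call here followed from that filter. The Osi9 difference held with each library left out. Osi6 was lost without either Ctr library at 24h (adjusted p = 0.129 and 0.0559), E2F 24h replicate 2 (0.120), Ctr 44h replicate 1 (0.0808) or E2F 44h replicate 2 (0.0909), Osi7 without Ctr 24h replicate 1 (0.0928), E2F + CycD 24h replicate 2 (0.0706) or E2F + CycD 44h replicate 1 (0.0597), and Osi15 without any 1 of 7 of its 8 libraries (0.0615 to 0.214), the exception being Ctr 44h replicate 2.

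Ctr wings were not the same as wild-type wings, although both were labelled 24h or 44h. On the scale of the joint fit of all 24 libraries, at 24h Osi4 had 314 and 137 CPM in Ctr wings, against 1.20 and 10.6 CPM in wild-type wings. Osi7 had 1364 and 637 CPM in Ctr wings, against 14.7 and 161 CPM in wild-type wings. Osi2, Osi4, Osi6 and Osi7 were called higher in Ctr wings at 24h, 4 genes beside 18.6% of genes, with log2 fold changes of 2.16 ± 0.76, 5.71 ± 0.87, 1.88 ± 0.57 and 3.55 ± 0.73. At 44h Osi2 (1.32 ± 0.41), Osi4 (2.72 ± 0.68) and Osi7 (2.03 ± 0.68) were called higher, beside 20.1% of genes, and Osi15 lower (-2.58 ± 0.53), beside 15.7%. Osi7 had 163259 and 152622 CPM in Ctr wings at 44h, against 37668 and 39853 CPM in wild-type wings, and the groups were far apart. Osi4 at both times, Osi7 at 24h and Osi15 at 44h held with each library left out. Osi2 at 24h was lost without wild-type replicate 1 (adjusted p = 0.356, edgeR) or Ctr replicate 1 (0.127), and Osi6 at 24h without wild-type replicate 1 (0.349). At 44h Osi2 was lost without either wild-type library (0.0793 and 0.0754) or Ctr replicate 2 (0.0862), Osi7 without either wild-type library (0.109 and 0.102) or Ctr replicate 1 (0.0568), and both with library totals as the scale (0.56 and 1.27 on the log2 scale). Marker genes of several cell types differed as well. On the joint scale, wing epithelium markers at 44h were 1705 and 1999 CPM in Ctr wings against 471 and 495 CPM in wild-type wings, and muscle markers were 71.0 and 102 CPM in Ctr wings against 235 and 1213 CPM in wild-type wings. Neuron markers at 44h were 272 and 305 CPM in Ctr wings against 112 and 94.9 CPM in wild-type wings, and hemocyte markers were 94.3 and 127 CPM in Ctr wings against 24.4 and 21.2 CPM in wild-type wings. The hemocyte markers did not move together, on group means in the separate fits. At 44h srp had 32.2 CPM in Ctr against 4.36 CPM in wild-type wings, and Pxn 63.3 against 18.1 CPM. NimC1 went the other way, at 1.31 against 4.54 CPM, and Hml was low, at 0.996 against 0.186 CPM. At 24h fat body markers were 23.1 and 62.1 CPM in Ctr wings against 122 and 58.4 CPM in wild-type wings, and wing epithelium markers were 2600 and 2740 CPM in Ctr wings against 1493 and 1215.1 CPM in wild-type wings. Among the wing epithelium markers, sd went the other way on group means in the separate fits. It had 640 CPM in Ctr against 946 CPM in wild-type wings at 24h, and 177 against 276 CPM at 44h. The part of these markers in the Osiris differences was not tested. Genotype, rearing temperature, the conversion of hours for the transgenic animals and depth differ together here and cannot be told apart.

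The companion genes in the transgenic wings at 44h did not all go the way of Osi4 and Osi7. Of the 9 cuticle assembly genes, 5 were lower in E2F + CycD than in Ctr wings, beside 16.1% of all genes. In E2F wings 3 were lower than in Ctr wings, beside 10.5% of all genes. The deacetylases led both, with serp at -6.46 ± 0.50 in E2F + CycD wings and -3.95 ± 0.44 in E2F wings, and verm at -5.96 ± 0.49 and -3.54 ± 0.44. Of the 8 ZP domain genes, 4 were higher and 1 lower in either genotype, including dy at 5.08 ± 0.50 in E2F + CycD wings and at 4.99 ± 0.50 with E2F alone. In E2F wings 12.6% of all genes were called higher, and the share called higher in E2F + CycD wings is not given here. Among the regulators, Blimp-1 was higher by 3.38 ± 0.30 in E2F + CycD wings and 3.08 ± 0.30 in E2F wings, and Eip75B, an ecdysone-induced receptor, was at -4.17 ± 0.37 and -2.14 ± 0.34. Of the 10 other Osiris genes tested, 5 were higher and 3 lower in each genotype. In E2F wings this stands beside 12.6% of all genes higher and 10.5% lower. For E2F + CycD wings only the share called lower, 16.1%, is given here. Osi22 had 5156 and 5402 CPM in E2F + CycD wings, 7924 and 5135 CPM in E2F wings, and 41.0 and 65.0 CPM in Ctr wings at 44h (6.64 ± 0.38 in E2F + CycD wings and 6.94 ± 0.38 in E2F wings), whereas Osi12 was lower, at -3.27 ± 0.49 and -1.90 ± 0.46. Osi1 was lower as well, at -2.88 ± 0.39 and -2.08 ± 0.38, and Osi3 was not called.

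Across the 24 libraries, the pattern of log2 levels was shared to different degrees among the 10 genes. The highest correlation between members was that of neighbours Osi19 and Osi20 (r = 0.98), and the lowest was between Osi4 and Osi18 (r = -0.09). Osi4 and Osi9, which were the members highest at 44h beside Osi7, had low correlations with the distal genes, such as 0.01 between Osi4 and Osi15 and 0.14 between Osi9 and Osi14. Of 9938 genes outside the Osiris family, those whose levels were most like the mean of the 10 were CG43386 (r = 0.968), TwdlT (0.967), a Tweedle cuticle protein gene, lncRNA:CR44936 (0.964), CG17104 (0.956) and PGRP-LA (0.955), a peptidoglycan recognition protein gene. The libraries share stages and genotypes, so these values describe likeness over 24 libraries and carry no test.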

How the data were processed

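RNA from female wings was sequenced in 24 libraries by the authors (KAPA stranded mRNA kit), aligned with STAR to dm6 and counted per gene with HTSeq. Tool versions, the annotation and the strand setting are not given in the sources used here. The deposited values are raw counts. Rows naming no gene (36.5% to 68.9% of each table, mostly reads aligned to several places) were left out. The study's 34 FAIRE samples were not analysed here.

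Counts were fitted in edgeR 4.0.16 (R 4.3.3; filterByExpr with a minimum of 10, TMM, quasi-likelihood test, Benjamini-Hochberg adjustment over all genes) in 3 fits: 12 wild-type libraries (8669 genes, biological coefficient of variation 20.25%), 12 transgenic libraries (9636 genes, 16.44%), and all 24 (9958 genes, 18.78%) for Ctr against wild type. Interactions used the transgenic fit. Standard errors are the log2 fold change over the root of F. A list is described by its calls and median beside all genes. Intervals for ratios on 1 to 3 reads are exact at 95% and cover counting error only. RPKM used exon lengths from the Ensembl annotation of the same assembly, and promoters were read from RefSeq's Release 6 genome, which is dm6. The fits were tested on simulated data. Correlations used log2 of CPM plus 1.

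The text names the 10 members, up to 4 other Osiris genes with the highest group means, the 5 genes most like the members, examples from companion lists, and the highest other gene of the cluster. Beside these, Osi11 was named for its call, and Osi5, Osi16 and Osi17 for their place in the cluster, not for their level. The members and lists were chosen with earlier results of these data known. The alternatives were DESeq2 1.42.0, RLE scaling, library totals, all genes with a count, a replicate block, a fit of only the groups compared, and each library left out. Symbols that did not match the files (Osi21, Osi10a, Osi10b and some companion genes) were not analysed here.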

Additional observations from a re-analysis of the deposited data

Results flagged for a closer look

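For 4 genes the effect of a genotype differed between 24h and 44h by a test of the difference itself, in 1 of the 10 genes for E2F (beside 6.16% of all genes called higher) and in 3 for E2F + CycD (2 higher beside 7.98%, and 1 lower beside 9.68%). The E2F effect on Osi6 was larger at 44h by 1.44 on the log2 scale, since Osi6 was above Ctr at 44h and level with it at 24h. The effect of E2F + CycD on Osi7 was 2.1 higher at 44h, where Osi7 was still below Ctr but less so. The effect of E2F + CycD on Osi9 was 2.14 higher at 44h, where Osi9 was no longer below Ctr. The effect of E2F + CycD on Osi15 differed by -6.54, which rests on 1 read in E2F + CycD wings at 44h and 1 read in Ctr wings at 24h. Osi15 passed the low-count filter only through Ctr and E2F wings at 44h, and this call followed from that filter. The Osi9 difference held with each library left out, whereas Osi6 was lost without any 1 of 5 libraries, Osi7 without any 1 of 3 and Osi15 without any 1 of 7. The Osi15 call was also lost with the replicate number as a block (adjusted p = 0.0583, edgeR) and was not made when only the groups compared were fitted.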

How the results depend on the processing

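Single genes were followed where they were called or had a mean of at least 10 CPM in either group. None of them changed its call or direction under DESeq2 or RLE scaling, though over all 10 genes DESeq2 called 4 of the 10 genes lower in E2F than in Ctr wings at 24h, against 2 in edgeR. Library totals in place of TMM took 8 calls away, added 4 and turned 3 directions, none of a called value: Osi9 moved to 0.13 for E2F and to -0.12 for Ctr against wild type, both at 24h, and to 0.036 for E2F + CycD against E2F wings at 44h. At 44h this scale gave 3 genes higher and 2 lower in E2F wings, 2 higher in E2F + CycD wings, 1 higher and 3 lower in Ctr against wild-type wings, and 2 higher in the interaction for E2F. On this scale the median of all genes against Ctr wings at 44h was itself 0.54 in E2F and 0.92 in E2F + CycD wings. Testing every gene with at least 1 count gave 1 gene higher at 18h than at 6h, 2 lower at 24h than at 18h, 4 lower in E2F than in Ctr wings and 4 lower in E2F + CycD than in E2F wings at 24h, and interactions of 3 higher for E2F and 2 lower for E2F + CycD. Fitting only the groups compared gave 2 lower at 24h than at 18h, 4 lower in E2F than in Ctr wings at 24h, 5 higher at 44h than at 24h in E2F + CycD wings, and 0 lower in the interaction for E2F + CycD. Where a value moved, the cause was not tested. The share of all genes called under each setting, or with a library left out, is not given here, so these counts describe the 10 genes only.

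With the replicate number as a block, the interaction for E2F + CycD had 0 genes lower, since Osi15 was at -6.51 with an adjusted p of 0.0583 in edgeR, and no other of these calls changed. Deviations of same-numbered libraries correlated between -0.057 and 0.14, over 0.1 in 3 of 17 comparisons and with 2 pairs in each, so the numbers were not taken as pairing the samples. Replicate 2 had the larger share of reads outside genes in all 6 transgenic groups, and replicate 1 the larger share aligned to several places in all 4 groups at 44h.

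With each library left out in turn, counts of genes called ran from 0 to 1 (18h against 6h, higher), 0 to 3 (24h against 18h, lower), 2 to 4 (36h against 24h, higher), 1 to 3 (E2F + CycD against E2F at 24h, lower), 1 to 2 higher and 2 to 3 lower (E2F against Ctr at 44h), 2 to 5 (E2F + CycD against E2F at 44h, lower), 2 to 4 and 1 to 2 (Ctr against wild type at 24h and 44h, higher). For the interactions they ran from 0 to 2 (E2F, higher), 1 to 2 (E2F + CycD, higher) and 0 to 1 (E2F + CycD, lower). Of single genes, 74 calls were lost, 7 were gained and 7 directions turned, none of a called value. Osi7 ran from -3.47 to 0.12 and Osi9 from -0.17 to 0.96 at 24h against 18h, Osi9 from -0.36 to 0.34 for E2F against Ctr at 24h, and against wild-type wings Ctr wings had Osi9 from -0.17 to 0.81 at 24h and Osi6 from -0.43 to 0.033 at 44h. The 10 genes peaked at 6h (7) and 44h (3) also under RLE, library totals and without either replicate number.

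With 2 libraries a group, the spread rests on all groups of a fit together, and a library left out leaves a lone sample assumed to vary like the rest. Osi15, Osi18, Osi19 and Osi20 had few reads outside 6h, and differences among genotypes were not detectable for them at 24h.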
